A study of Mus musculus with 27 samples.

Results

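This comparison set the kidneys with the longest ischemia in the series against those with moderate ischemia, with the replicates of several ischemia times pooled to give larger groups. The long ischemia group held the 6 kidneys clamped for 28 or 30 min, and the moderate ischemia group held the 12 kidneys clamped for 18, 20, 22 or 24 min, so that 18 of the 27 kidneys of the series entered it. The members were chosen by ischemia time alone. Every kidney came from a different wild-type C57BL/6 mouse of which the right kidney had been removed and the left renal pedicle clamped on a heated plate, and the left kidney was taken after 24 h of reperfusion. The loss of the right kidney was thus shared by both groups. Age and sex are not given in the sources used here, and each ischemia time had 3 mice. Values were deposited as FPKM (sequenced fragments relative to transcript length and to the mapped reads of the library) for 19392 gene symbols.

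Clamping of the renal pedicle stops blood flow, and reperfusion restores it. The proximal tubule, which takes back most of the filtered sodium, phosphate, glucose, amino acids and protein and relies on mitochondrial fuel, is the segment known to suffer first. Injured tubule cells are known to lose their brush border and transporters and to take on a repair state with new keratins, secreted injury markers and cell cycle entry. Segments further along, above all the thick ascending limb, dilute the urine and make uromodulin and epidermal growth factor. Whole kidney RNA mixes all of these cells with vessels and leukocytes, so fewer cells of a type and less RNA per cell cannot be told apart here.

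Summed FPKM ran from 523336 to 554036 over these 18 kidneys, with 16666 to 16904 genes above 0 FPKM. The depth is unknown without read totals, and the precision rests on the spread between mice. RNA of fat was present in some kidneys, with Adipoq, an adipocyte hormone, at 1 FPKM or more in 5 of the 18 (up to 24.48 FPKM). Leaving out these 5 kidneys, a choice made after seeing the data, gave 679 called genes in place of 689.

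In kidneys with long ischemia, 227 genes were higher and 462 lower than in kidneys with moderate ischemia in limma, counting genes whose adjusted p-value was under 0.05 and whose log2 fold change was beyond 1 in either direction. These 689 genes were 3.84% of the 17935 tested, 1.27% higher and 2.58% lower, and a gene that met both criteria is called higher or lower in what follows. The counts per gene list below are to be read against these shares of all tested genes. With no limit on the fold change, 9359 genes passed the adjusted p-value, of which 5305 were higher and 4054 lower. On the log2(FPKM + 1) scale the decreases were the larger changes, with 83 called genes beyond 2 in that direction against 23 among the increases. That scale understates changes of genes at low levels. In moderate kidneys the genes called higher averaged 3.36 to 3.87 on it and those called lower 4.72 to 5.11. With 0.1 FPKM added in place of 1, 501 genes were higher and 791 lower. All 6 long ischemia kidneys lay above all 12 moderate ones for 11.1% of tested genes and below all 12 for 9.63%. The median log2 fold change over all tested genes was 0.01, and reached at most 0.034 under another scaling or pseudocount. Where 2 ranges are set against each other without their groups, that of the moderate kidneys comes first.

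Among the called genes whose groups did not overlap, predicted symbols left out, the largest increase was that of Sprr2f, a small proline-rich protein of stressed epithelia. Its level was between 28.4 and 127 FPKM (median 58.7) in the 6 long ischemia kidneys and between 1.29 and 9.13 FPKM (median 3.98) in the 12 moderate ones. The log2 fold change was 3.61 ± 0.34 (SE, adjusted p = 9.16e-08). Krt20, a keratin of surface epithelia, rose by 3.30 ± 0.32 and Fosl1, a subunit of the transcription factor AP-1, by 3.17 ± 0.18. Fosl1 was under 2 FPKM in every moderate kidney (0.21 to 1.97) and over 10 FPKM in every long ischemia kidney (10.8 to 23.4). Further members of the largest 12 increases were Fgb (a fibrinogen chain), Vgf, Lcn2, Grp, Akap12 (a scaffold of protein kinase A), Crct1, Steap1 and Srxn1 (sulfiredoxin), with log2 fold changes between 2.21 and 2.68. Vgf and Grp are precursors of secreted peptides better known from neurons and endocrine cells. Both were low in moderate kidneys, with Vgf at 0.26 to 3.06 FPKM and Grp at 0.48 to 2.95 FPKM, and reached 6.85 to 14.9 and 5.96 to 17.2 FPKM.

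**Figure D1:**
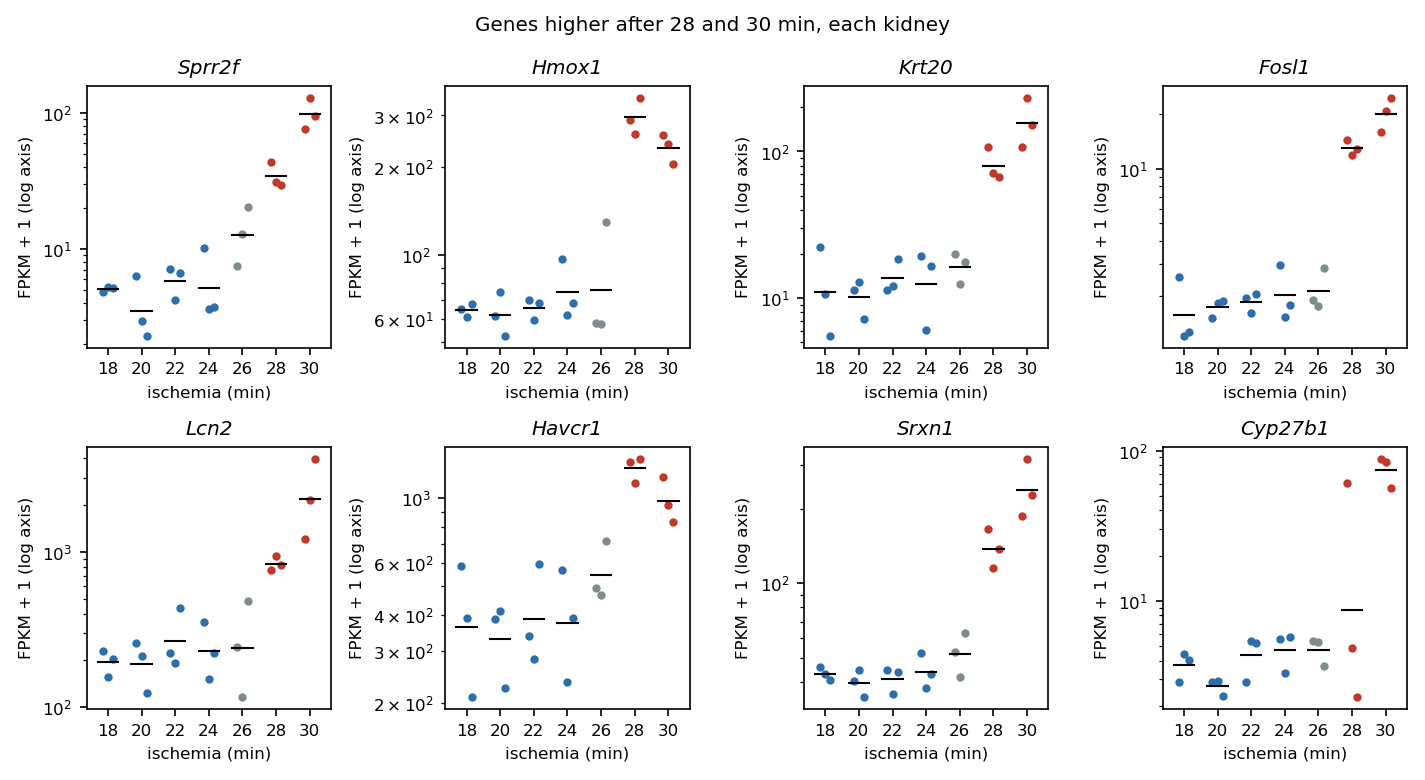
FPKM + 1 on a log axis against ischemia time in min for 8 genes, with a point per kidney (3 per time), blue for 18 to 24 min, grey for 26 min and red for 28 and 30 min, and a black bar at the mean on the log scale. Sprr2f, Hmox1, Krt20, Fosl1, Lcn2, Havcr1 and Srxn1 were higher in all 6 red kidneys than in all 12 blue ones, while Cyp27b1 stayed at 1.28 and 3.82 FPKM in 2 of the 28 min kidneys.

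The largest decrease was that of Mep1b, the beta subunit of meprin, a metalloprotease of the proximal tubule brush border. It was between 22.3 and 81.0 FPKM (median 52.2) after moderate ischemia and between 0.92 and 1.78 FPKM (median 1.49) after long ischemia, a log2 fold change of -4.28 ± 0.24 (SE, adjusted p = 7.41e-10). Slc7a13, a transporter of acidic amino acids in the late proximal tubule, had between 58.0 and 196 FPKM against 1.99 to 8.73 FPKM and fell by 4.11 on the log2 scale. Acsm3, a mitochondrial ligase that activates medium-chain fatty acids, fell by 3.53 ± 0.18 and Egf, the epidermal growth factor made by the distal nephron, by 3.46 ± 0.26. These 4 genes were ranked among genes whose groups did not overlap. That no long ischemia kidney reached the lowest moderate kidney for them therefore follows from the choice. Scd1, which puts the double bond into newly made fatty acids, went from 23.4 to 81.0 FPKM down to 2.97 to 6.65 FPKM. Mettl7a2, Nat8f6, Akr1c14, Slc22a22, Methig1, Slc7a12 and Ceacam2 completed the largest 12 decreases, with log2 fold changes from -3.48 to -3.12. Several of these (Nat8f6, Akr1c14, Methig1, Mettl7a2) have close paralogs, and their levels are uncertain where reads were split between copies.

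**Figure D2:**
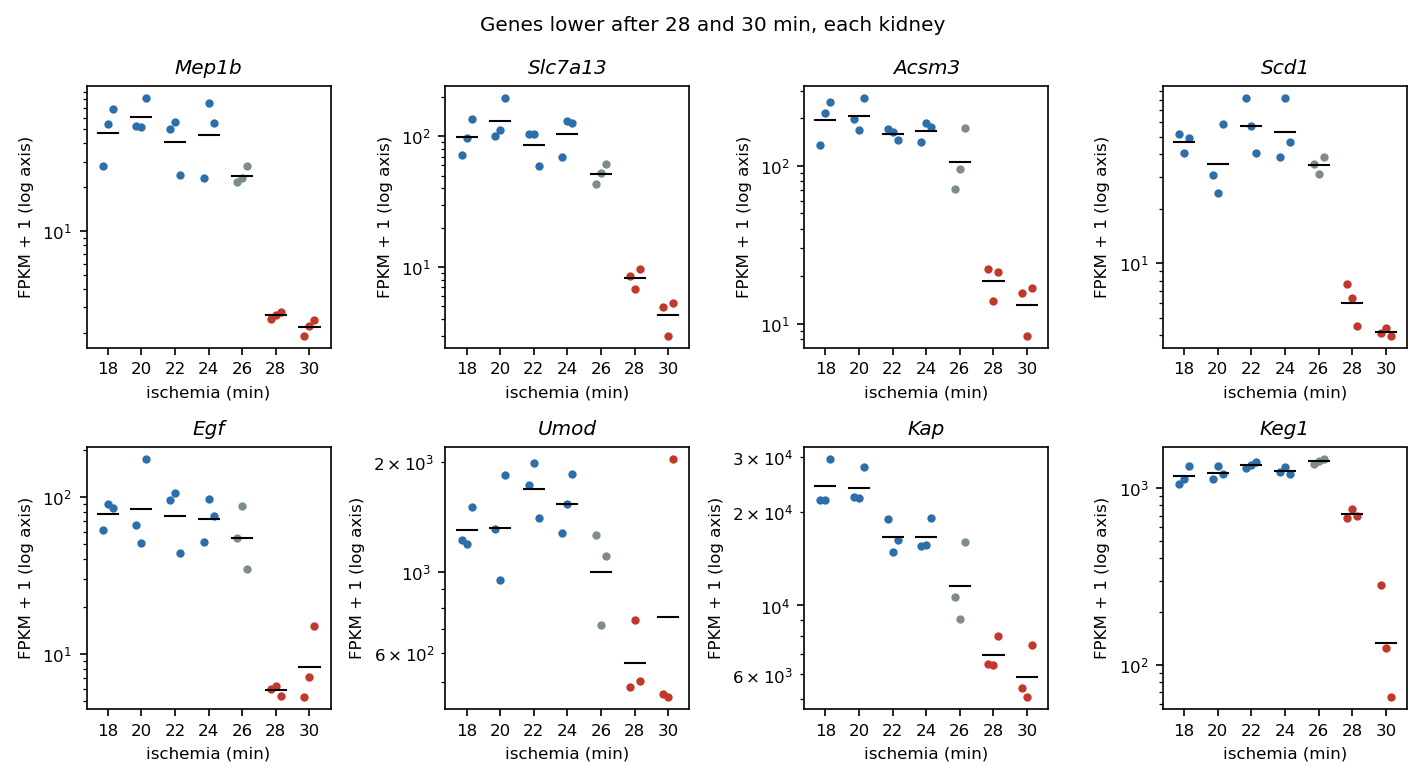
FPKM + 1 on a log axis against ischemia time in min for 8 genes, with a point per kidney, coloured by group as blue (18 to 24 min), grey (26 min) and red (28 and 30 min), and a black bar at the mean on the log scale. Mep1b, Slc7a13, Acsm3, Scd1, Egf, Kap and Keg1 were lower in all 6 red kidneys, and Umod was at 2034 FPKM in 1 kidney at 30 min.

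Of 30 tubular injury markers, 22 were higher and 0 lower, against 1.27% higher among all tested genes, and their median log2 fold change was 1.71. Like the other lists, this one was chosen with earlier results of these data known, so its count may partly follow from the choice. The 22 were Sprr2f, Krt20, Fgb, Lcn2, Akap12, Gdf15, Hmox1, Fga, Cdkn1a, Fgg, Anxa3, Tnfrsf12a, Sox9, Krt19, Plaur, Havcr1, Spp1, Anxa2, Krt18, Krt8, S100a6 and Clu. Lcn2, the secreted protein NGAL, was at 759 to 3921 FPKM (median 1072) after long ischemia and at 123 to 434 FPKM (median 218) after moderate ischemia, and rose by 2.44 ± 0.28 on the log2 scale. Havcr1, which encodes KIM-1, a receptor by which injured proximal tubule cells take up dead cells, was at 208 to 595 FPKM (median 387) against 831 to 1359 FPKM (median 1154), a log2 fold change of 1.71 ± 0.23. The groups were apart for both genes. With the 28 min kidneys alone as the long ischemia group 22 of the 30 were called higher, and with the 30 min kidneys alone 23.

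The proximal tubule lists moved the other way. Of 46 proximal tubule transporters, 27 were lower and 0 higher (2.58% of all tested genes were lower), with a median log2 fold change of -1.17, and 35 of the 46 were below all moderate kidneys in every long ischemia kidney. Slc7a13 and Slc7a12, which carry amino acids, and the organic anion transporters Slc22a19 and Slc22a13 had the largest decreases within this list, which does not hold Slc22a22. Slc22a19 was between 18.9 and 45.2 FPKM after moderate ischemia and between 2.33 and 5.84 FPKM after long ischemia. Slc22a13 was between 20.9 and 54.6 FPKM and between 2.75 and 6.97 FPKM in the same groups. The summed level of the 46 transporters was 7377 to 8825 FPKM in moderate kidneys and 2471 to 4712 FPKM in long ischemia kidneys, with no overlap. Among 20 genes of the brush border and of endocytosis, 12 were lower and 0 higher, among them Mep1b, Napsa, Anpep, Mep1a, Ace, Dpep1, Lrp2, Cubn, Treh, Mme and Pdzk1, and the list had a median of -1.21. Napsa, an aspartic protease, was at 789 to 1338 FPKM (median 1061) against 145 to 379 FPKM (median 252). Anpep, aminopeptidase N, went from 64.8 to 87.2 FPKM to 10.7 to 32.6 FPKM, and Mep1a, the other meprin subunit, from 369 to 548 FPKM to 77.4 to 142 FPKM. Lrp2 (megalin) and Cubn (cubilin) are the receptors that take filtered protein back into the tubule cell.

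Kap, an androgen-dependent protein of the proximal tubule and, after Gpx3, the transcript with the highest mean FPKM over the series, was at 14842 to 29488 FPKM (median 20450) in moderate kidneys and at 5071 to 7975 FPKM (median 6454) after long ischemia. It held 3.78% ± 0.86 (SD, n = 12) of the summed FPKM of moderate kidneys and 1.20% ± 0.21 (SD, n = 6) of that of long ischemia kidneys. An exact permutation test of this share, two-sided, gave p = 5.39e-05, which is the smallest p that the 18564 possible assignments allow. Its log2 fold change of -2.11 ± 0.09 is on the quantile normalized scale. It is a larger decrease than the ratio of the median FPKM values gives.

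The loop and distal segments had decreases as well, to be read against 2.58% lower and 1.27% higher among all tested genes. Among 30 genes of the thick ascending limb and distal convoluted tubule, 13 were lower (Egf, Pvalb, Ppp1r1b, Calb1, Slc12a1, Bsnd, Slc8a1, Ptger3, Umod, Sostdc1, Kcnj1, Cldn19 and Klhl3) and 1 was higher, with a median log2 fold change of -0.82. Egf was at 42.7 to 173 FPKM (median 79.6) in moderate kidneys and at 4.29 to 14.1 FPKM (median 5.11) in long ischemia kidneys. Pvalb (parvalbumin), a calcium binding protein of the early distal convoluted tubule, went from 3.67 to 17.6 FPKM to 0.06 to 0.69 FPKM, and Calb1 (calbindin), a calcium carrier of the late part, from 73.0 to 230.3 FPKM to 23.2 to 59.0 FPKM. For Ppp1r1b the groups overlapped, with 12 to 43.5 FPKM against 2.63 to 15.4 FPKM. The gene that went up was Cldn14, a claudin that blocks the paracellular path for calcium in the thick ascending limb, at 0.1 to 1.34 FPKM in moderate and 0.47 to 5.17 FPKM in long ischemia kidneys, a log2 fold change of 1.09 ± 0.25. Without the second or the third 28 min kidney it was 0.89 and not called. A single higher gene in a list of 30 is near the share over all tested genes.

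The third kidney at 30 min stood apart from the other 5 long ischemia kidneys for thick ascending limb genes. Umod (uromodulin) was at 483, 741 and 502 FPKM in the 28 min kidneys and at 463, 454 and 2034 FPKM in the 30 min kidneys. Slc12a1, the sodium, potassium and chloride cotransporter NKCC2 of this segment, was at 32.8, 35.2 and 28.8 FPKM and at 39.3, 43.2 and 142 FPKM in the same order. The values of this kidney fell within the moderate range of 89.7 to 291 FPKM for Slc12a1 and above that of 954 to 1982 FPKM for Umod. These genes were picked after their values were seen. The summed level of the list was 3298 FPKM in this kidney and 1202 to 1592 FPKM in the other 5. No other long ischemia kidney reached the lowest moderate kidney for either gene. The departure of this kidney was not limited to the thick ascending limb. Its summed level was also the highest of the 6 for fibroblast and smooth muscle genes (820.8 FPKM against 238.6 to 339.1 in the other 5), collecting duct genes (1148 against 544.5 to 695.8), monocyte and macrophage genes (223.6 against 126 to 165.9) and endothelial genes (519.8 against 254.8 to 429.2). Without it the numbers of called genes in these 4 lists were the same as with it.

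In the collecting duct, 4 of 25 genes were lower (2.58% of all tested genes) and 0 higher, with a median of -0.53. Slc4a1, the chloride and bicarbonate exchanger of acid-secreting intercalated cells, was at 6.44 to 19.9 FPKM in moderate kidneys and at 0.95 to 2.98 FPKM after long ischemia. Rhcg, an ammonia transporter, fell by 1.14 ± 0.10, Aqp6 by 1.11 ± 0.16 and the vasopressin receptor Avpr2 by 1.06 ± 0.18 on the log2 scale. Without the second 30 min kidney 2 of the 25 were called, Aqp6 and Avpr2 being at -0.95 and -0.99.

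**Figure D3:**
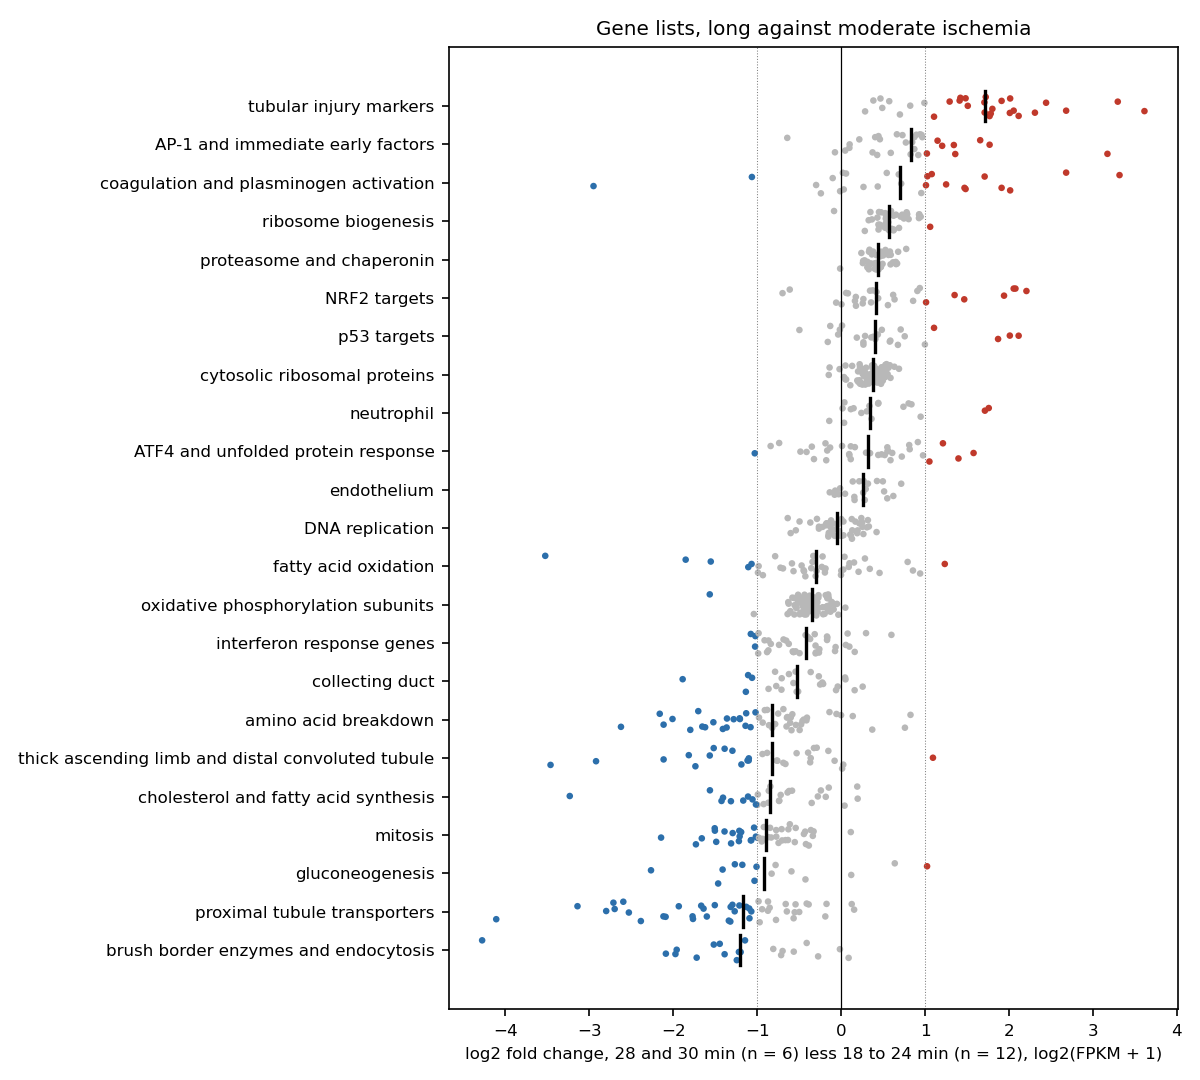
Log2 fold change (long less moderate ischemia, on log2(FPKM + 1)) on the horizontal axis for the tested genes of 23 gene lists, with a point per gene (red called higher, blue called lower, grey not called), a black bar at the median of each list and dotted lines at the fold change limit. Medians ran from 1.71 for tubular injury markers to -1.21 for brush border enzymes and endocytosis.

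The proximal tubule breaks down amino acids and makes glucose. Of 49 genes of amino acid breakdown, 19 were lower and 0 higher, and the median log2 fold change was -0.82. Aadat, an aminotransferase of the lysine and kynurenine pathways, was at 67.2 to 143 FPKM in moderate kidneys and at 12.1 to 22.6 FPKM after long ischemia. Gatm, which makes the creatine precursor guanidinoacetate, fell by 2.16 ± 0.24 and Hao2, a peroxisomal hydroxyacid oxidase, by 2.12 ± 0.18. Of 14 genes of gluconeogenesis and fructose use, 7 were lower (among them G6pc, Khk, Gk, Sord, Slc37a4 and Fbp1) and 1 was higher, with a median of -0.92. G6pc, the last step of glucose release, was at 65.5 to 163 FPKM against 12.9 to 46.3 FPKM, a log2 fold change of -2.27 ± 0.23. The one that rose was Akr1b3, the aldose reductase that makes sorbitol, by 1.02 ± 0.19, and its call was lost without any of 5 single kidneys (lowest 0.86 without the first 30 min kidney) and without quantile normalization. Khk, Gk and Sord, which feed fructose, glycerol and sorbitol into sugar metabolism, fell by 1.47, 1.41 and 1.27 on the log2 scale.

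Fatty acid oxidation and the respiratory chain had fewer calls. Of 42 genes of fatty acid oxidation, 5 were lower (Acsm3, Acox2, Acsm5, Acox3 and Acadm) and 1 was higher, with a median of -0.30. Acox2, a peroxisomal oxidase, was at 32.2 to 65.4 FPKM and at 7.61 to 19.4 FPKM, and Acsm5 fell by 1.55 ± 0.11. Acot2, a mitochondrial thioesterase that frees fatty acids from coenzyme A, was higher, at 14.1 to 20.4 FPKM against 25.8 to 72.2 FPKM. Without the second 28 min or the third 30 min kidney, 2 genes of the list were called higher. Of 88 subunits of oxidative phosphorylation, only Cox7a1 was called lower (log2 fold change -1.57 ± 0.13), but 67 of the 88 were below all moderate kidneys in every long ischemia kidney, against 9.63% of all tested genes, and the median was -0.35. Atp5b, a catalytic subunit of ATP synthase, was at 1347 to 1596 FPKM (median 1481) in moderate and at 1000 to 1121 FPKM (median 1059) in long ischemia kidneys, a small difference (log2 fold change -0.51 ± 0.05) in which the groups did not overlap. Cox8a, a subunit of cytochrome c oxidase, had a log2 fold change of -0.56 ± 0.04. In the citric acid cycle list of 28 genes, 20 were likewise below all moderate kidneys and the 2 called genes were both kinases of pyruvate dehydrogenase. Pdk4, the kinase induced by fasting, was at 2.47 to 6.88 FPKM against 7.76 to 37 FPKM and rose by 1.76 ± 0.26, while Pdk2 fell by 1.16 ± 0.06 from 105 to 146 FPKM to 46.4 to 63.4 FPKM.

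The glycolysis list had a median log2 fold change of -0.02 over 27 genes and 2 called lower. These were Pgam2, a muscle-type phosphoglycerate mutase, by 1.30 ± 0.15 on the log2 scale and Aldoc by 1.14 ± 0.21. Pfkfb3, which makes the main activator of phosphofructokinase, was at 3.96 to 9.12 FPKM (median 4.91) in moderate and at 3.82 to 6.76 FPKM (median 5.25) in long ischemia kidneys, with a log2 fold change of -0.08 ± 0.15 (adjusted p = 0.687). The ranges of the groups overlapped for this gene.

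Sterol synthesis follows the cell's demand for membrane. Of 29 genes of cholesterol and fatty acid synthesis, 9 were lower (among them Scd1, Cyp51, Insig1, Hmgcs1, Mvd, Idi1, Dhcr7 and Srebf1) and 0 higher, with a median of -0.84. Hmgcs1 and Cyp51, an early and a late enzyme of sterol synthesis, fell by 1.41 ± 0.17 and 1.56 ± 0.15, and Insig1, a sterol sensor, by 1.43 ± 0.19. Of 108 cytochrome P450, UDP-glucuronosyltransferase, sulfotransferase and glutathione transferase genes, 15 were lower and 2 higher. Among all tested genes 2.58% were lower and 1.27% higher, and 2 higher genes of 108 are near that share. Ugt3a1 was at 61.5 to 105 FPKM in moderate and at 10.2 to 16.4 FPKM in long ischemia kidneys, the smallest adjusted p-value of the named genes together with Kap (5.42e-11). Cyp2j11 fell by 2.21 ± 0.12 and Cyp2d26 by 1.93 ± 0.14. Both genes that rose were glutathione transferases of the alpha class, Gsta1 (26.7 to 111 FPKM against 144 to 295 FPKM) and Gsta4 (36.5 to 87.6 FPKM against 117 to 237 FPKM).

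Transcription factors were described in a pair of lists. Of 27 factors of tubule identity, 0 were called in limma, with a median of -0.20, and 6 were below all moderate kidneys (9.63% of all tested genes). Hnf4a, which drives proximal tubule genes, was at 167 to 201 FPKM (median 178) in moderate and at 95.6 to 177 FPKM (median 154) in long ischemia kidneys, and its log2 fold change was -0.20 ± 0.10 (adjusted p = 0.0918). Of 32 AP-1 and immediate early genes, 8 were higher and 0 lower, namely Fosl1, Myc, Dusp5, Maff, Atf3, Klf6, Fosb and Ier2, and the median of the list was 0.84. Myc, a driver of growth, was at 5.47 to 11.96 FPKM (median 7.72) in moderate and at 18.2 to 35.9 FPKM (median 30.7) in long ischemia kidneys. Dusp5, a phosphatase of nuclear ERK, rose by 1.66 ± 0.10, and Maff, a small Maf factor that pairs with AP-1 like and NRF2 factors, by 1.36 ± 0.15.

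The letters at the start of the called genes were searched for 4 motifs, on both strands, in RefSeq promoters of GRCm38.p6 running from 250 bases before to 50 bases after the transcript start. A promoter was matched for 162 of the 227 genes called higher, 362 of the 462 called lower and 14127 of all tested. The AP-1 motif TGANTCA was in 14.2% of promoters of genes called higher, 6.08% of those called lower and 5.95% of all promoters. The antioxidant response element, searched as TGACNNNGC, was in 21%, 11.3% and 14.1%, and a match to it can overlap one to the AP-1 motif. The HNF4 motif CAAAGTCCA was in 0.617% of promoters of genes called higher, 2.49% of those called lower and 0.411% of all. The HNF1 motif GTTAATNAT was in 0.617%, 3.04% and 0.651%. These shares are a description, with no test. The 9 genes called lower with the HNF4 motif were Aadat, Agxt2, Aspdh, Hsd3b3, Pdzk1, Pipox, Slc3a1, Smcp and Treh.

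Stretches around a match are printed for 5 named genes, 5′ to 3′ on the strand of the gene and upstream of its start. They are examples of the AP-1, HNF4 and HNF1 motifs, and none is printed for the antioxidant response element. The G6pc stretch also holds the reverse complement of a match to that element (gcactgtca), which is not in capitals. The stretches do not cover all matches. The AP-1 motif was also in the promoters of Serpina1a and Acox2, which were lower, with log2 fold changes of -2.95 and -1.85. Capitals mark the match, which is the AP-1 motif in Sprr2f (chr3:92364963-92365023, + strand), Fgb (chr3:83050003-83050063, - strand) and both stretches of Srxn1 (chr2:152105395-152105455 and chr2:152105452-152105512, + strand), the reverse complement of the HNF4 motif in Aadat (chr8:60506025-60506087, + strand) and the HNF1 motif in G6pc (chr11:101367468-101367530, + strand).
Sprr2f: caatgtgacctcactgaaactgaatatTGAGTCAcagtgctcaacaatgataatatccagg
Fgb: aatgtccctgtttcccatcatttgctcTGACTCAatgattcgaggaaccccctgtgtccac
Srxn1: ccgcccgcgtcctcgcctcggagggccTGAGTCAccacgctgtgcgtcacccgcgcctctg
Srxn1: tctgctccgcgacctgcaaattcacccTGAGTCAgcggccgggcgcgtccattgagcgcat
Aadat: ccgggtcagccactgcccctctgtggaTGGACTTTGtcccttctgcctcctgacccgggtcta
G6pc: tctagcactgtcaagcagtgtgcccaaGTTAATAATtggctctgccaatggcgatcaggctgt
Sprr2f, Fgb and Srxn1 were higher by 3.61, 2.68 and 2.21 on the log2 scale, and Aadat and G6pc were lower, with log2 fold changes of -2.62 and -2.27. Fga, which holds the HNF1 motif as well, was higher, with a log2 fold change of 2.01.

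Stress response lists rose in part, to be read against 1.27% higher and 2.58% lower among all tested genes. Of 29 targets of NRF2, the factor that answers oxidants, 7 were higher (Srxn1, Cbr3, Hmox1, Gsta1, Gsta4, Txnrd1 and G6pdx) and 0 lower, with a median of 0.42. Srxn1, which restores oxidized peroxiredoxins, was at 33.6 to 51.0 FPKM (median 42.0) in moderate and at 114 to 316 FPKM (median 175) in long ischemia kidneys. Hmox1, heme oxygenase, rose by 2.06 ± 0.10 from 51.7 to 95.8 FPKM to 203 to 344 FPKM, and Cbr3, a carbonyl reductase, by 2.08 ± 0.19. Of 36 genes of the ATF4 and unfolded protein response, 4 were higher, namely Trib3, Chac1, Atf5 and Asns, which belong to the amino acid arm. The 1 that was lower, Sdf2l1 (log2 fold change -1.03 ± 0.16), is a chaperone partner in the endoplasmic reticulum, and 1 lower gene of 36 is near the share over all tested genes. Trib3 rose by 1.58 ± 0.13, Chac1, which breaks down glutathione, by 1.40 ± 0.16, Atf5 by 1.21 ± 0.10 and Asns, which makes asparagine, by 1.05 ± 0.12. Sdf2l1 was not called without the second 30 min (-0.94), the third 30 min (-0.90) or the first 24 min kidney (-0.98).

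Of 25 p53 targets, 4 were higher (1.27% of all tested genes) and 0 lower, and 13 were above all moderate kidneys (11.1% of all). Cdkn1a, which encodes the cell cycle inhibitor p21, was at 9.80 to 24.0 FPKM (median 14.3) in moderate and at 40.8 to 110 FPKM (median 56.3) in long ischemia kidneys, a log2 fold change of 2.01 ± 0.20. Gdf15, a stress hormone, rose by 2.12 ± 0.18, Plk3 by 1.87 ± 0.30 with overlapping groups, and Aen, a nuclease, by 1.11 ± 0.07. Of 36 cell death genes, 4 were higher. Tnfrsf12a, the receptor for TWEAK, was at 51.5 to 111 FPKM against 211 to 266 FPKM. Mlkl, the executor of necroptosis, rose by 1.17 ± 0.12, Acsl4, which makes membranes prone to ferroptosis, by 1.16 ± 0.10, and Bcl2l1, whose main product protects mitochondria from apoptosis, by 1.03 ± 0.07. Of 27 HIF targets, 3 were higher, among them Adm (1.64 ± 0.10) and Edn1 (1.24 ± 0.18), and the median was 0.04. Adm and Edn1 encode vessel-active peptides, one widening and one narrowing vessels. Of 45 heat shock genes, Hspb1 (1.61 ± 0.22) and Hspa1a (1.18 ± 0.28) were higher, both with overlapping groups, and the median was 0.03. Without the second 30 min kidney Hspa1a was at 0.94 and Bcl2l1 at 0.97, and neither was called. Bcl2l1 was also not called without quantile normalization (0.95), after rescaling to a constant sum (0.96) or against 22 and 24 min alone (0.97).

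Genes of clotting and keratins share members with the injury markers. Of 26 genes of coagulation and plasminogen activation, 11 were higher (among them Fgb, Fga, Fgg, Plaur, Anxa2, Procr, S100a10, F2rl1, Thbd and Plat) and 2 lower, with a median of 0.70. Fgb was at 6.93 to 26.2 FPKM (median 15.1) in moderate and at 31.5 to 133 FPKM (median 110) in long ischemia kidneys, and Fga rose by 2.01 ± 0.30 with overlapping groups. The 2 lower ones were Serpina1a, an antitrypsin (47.4 to 105 FPKM against 3.23 to 23.1 FPKM), and Proc, protein C. Serpina1a has near-identical copies, which makes its level uncertain, and Proc fell by 1.06 ± 0.09. Of 33 keratins 6 were higher, Krt20, Krt14, Krt19, Krt18, Krt8 and Krt5. Krt18, the partner of Krt8 in simple epithelia, was at 34.0 to 70.5 FPKM against 102 to 174 FPKM.

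Krt14 and Krt5 are also keratins of basal urothelium, which lines the renal pelvis. Krt14 was at 6.71, 1.86 and 4.07 FPKM in the 28 min kidneys, at 14.9, 11.9 and 4.34 FPKM in the 30 min kidneys and at 0.05 to 4.16 FPKM in moderate ones, so that the groups overlapped. Upk3a, a urothelial plaque protein, was at 0.16 to 6.58 FPKM in long ischemia and 0.39 to 11.7 FPKM in moderate kidneys, highest in the third kidney at 22 min and, among long ischemia kidneys, in the first at 30 min. Summed over 7 urothelial markers chosen after seeing the data, the kidneys ran from 9.47 to 74.5 FPKM after long and from 2.93 to 55.5 FPKM after moderate ischemia. The part of urothelium in the keratin values was not tested.

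Of 33 integrin and focal adhesion genes, Actn1 (1.24 ± 0.11), Itga5 (1.14 ± 0.23) and Itga3 (1.11 ± 0.11) were higher and 0 lower. Actn1 links actin to adhesions, Itga5 is part of the fibronectin receptor and Itga3 part of a laminin receptor. Lamb3, a laminin chain of epithelial basement membranes, rose by 1.22 ± 0.14 and Tnc, a matrix protein of wounds, by 1.12 ± 0.17, whereas Col3a1 fell by 1.21 ± 0.21 with overlapping groups, and these were the only called genes among 58 collagens, laminins and related genes. Without the third 30 min kidney Tnc was at 0.98 and Itga5 at 0.87, and without the second Col3a1 was at -0.98, so that these calls were lost. Of 43 matrix proteases and inhibitors, Mmp7 (1.26 ± 0.18) and Adamts1 (1.20 ± 0.14) were higher and Adamts15 lower, with a log2 fold change of -1.25 ± 0.13. Among all tested genes 1.27% were higher and 2.58% lower, and 1 lower gene in each of these 2 matrix lists is near that share. Mmp7 was low throughout, with 0 to 0.95 FPKM in moderate and 0.99 to 4.64 FPKM in long ischemia kidneys. Tubb2a was the only one of 17 tubulins to be called, higher by 1.06 ± 0.15, and not without the second (0.94) or the third 30 min kidney (0.95), without quantile normalization (0.97), after rescaling to a constant sum (0.98) or against 22 and 24 min alone (0.96). Tuba1b and Tubb4b, the most abundant tubulins, had log2 fold changes of 0.43 ± 0.08 and 0.40 ± 0.06.

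Genes of protein synthesis and turnover gave 1 call. Of 83 cytosolic ribosomal proteins, 0 were called in limma at this fold change, but 43 were above all 12 moderate kidneys in each long ischemia kidney (11.1% of all tested genes), and the median log2 fold change was 0.38. Rpl41 and Rps2, the most abundant, had log2 fold changes of 0.06 ± 0.08 and 0.13 ± 0.07 with overlapping groups. Of 40 ribosome biogenesis genes, 32 were above all moderate kidneys, with a median of 0.57, and Gnl3, a nucleolar GTPase, was called higher (1.06 ± 0.07). Npm1, nucleophosmin, was at 129 to 172 FPKM (median 152) against 202 to 317 FPKM (median 297), and Nop10 had a log2 fold change of 0.33 ± 0.05. Of 42 proteasome and chaperonin genes, 0 were called and 29 were above all moderate kidneys, with a median of 0.44. Psmb5, the chymotrypsin-like site of the proteasome, was at 164 to 199 FPKM against 207 to 250 FPKM, while the groups overlapped for Psma4.

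Cell cycle genes differed within the long ischemia group. Of 44 mitosis genes, 18 were lower and 0 higher than after moderate ischemia, with a median of -0.90. Cdca3, a protein of mitotic entry, was at 6.68 to 29.1 FPKM (median 18.1) in moderate and at 1.35 to 4.85 FPKM (median 3.81) in long ischemia kidneys. Ccnb2 (cyclin B2) fell by 1.73 ± 0.22, Ube2c by 1.66 ± 0.20 and Birc5 (survivin) by 1.51 ± 0.29. With the 28 min kidneys alone 6 of the 44 were called lower, and with the 30 min kidneys alone 30. Of 48 DNA replication genes 0 were called in either direction by limma, and the median was -0.04. That median joined values of opposite sign, since it was 0.40 with the 28 min kidneys alone and -0.47 with the 30 min kidneys alone as the long ischemia group. Pcna, the sliding clamp, was at 46.8 to 111 FPKM in moderate and at 52.98 to 126 FPKM in long ischemia kidneys (log2 fold change 0.17 ± 0.19), and Rfc2, of its loader, had a log2 fold change of -0.37 ± 0.11.

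Between 30 and 28 min, 197 genes (1.1% of those tested) were called, 77 higher (0.429%) and 120 lower (0.669%). Single kidneys moved this count, to 90 without the third 30 min, 116 without the second 28 min, 129 without the third 28 min and 355 without the first 30 min kidney. The 48 DNA replication genes gave 21 of the 120 lower ones and 0 of the higher ones, with a median log2 fold change of -0.91. Mcm5, a part of the replicative helicase, was at 24.2, 31.3 and 28.0 FPKM at 28 min and at 14.6, 7.27 and 8.28 FPKM at 30 min. Its moderate kidneys ran from 7.04 to 23.5 FPKM, so that all 28 min kidneys lay above and all 30 min kidneys within that range. Rrm2, which makes deoxynucleotides, was at 30.8, 35.5 and 35.2 FPKM and at 20.1, 7.53 and 9.92 FPKM. Both were named after their values were seen. Of the 44 mitosis genes, 4 were lower at 30 than at 28 min (Ccna2, Ect2, Pbk and Top2a), with a median of -0.69. The number of DNA replication genes called lower was 3 without the third 30 min kidney and 27 without the first, which had the highest level of the 3, and 10, 10 and 11 without the second 30 min, the second 28 min or the third 28 min kidney. Among moderate kidneys the third at 20 min was low for these genes too, with a mean log2(FPKM + 1) of 2.86 over the list against 3.29 to 3.74 in the other 11, close to 2.84, 2.88 and 3.38 in the 30 min kidneys.

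**Figure D4:**
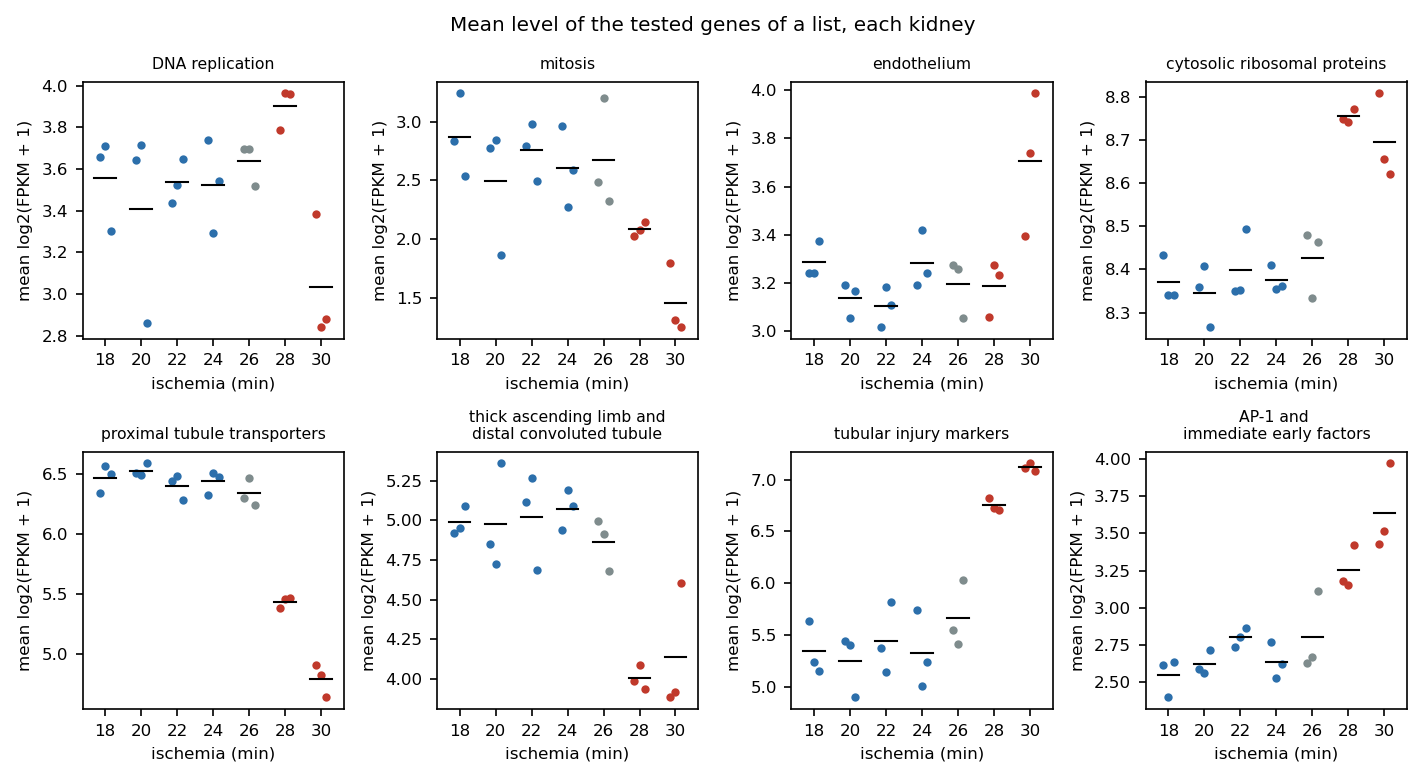
Mean of log2(FPKM + 1), after quantile normalization, over the tested genes of 8 lists against ischemia time in min, with a point per kidney (blue 18 to 24 min, grey 26 min, red 28 and 30 min) and a black bar at the mean of 3 kidneys. DNA replication genes were at 3.79 to 3.96 in the 28 min kidneys and at 2.84 to 3.38 in the 30 min kidneys, while proximal tubule transporters stepped down at 28 min and again at 30 min.

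Of the 689 called genes, 82 were also called between 30 and 28 min, of which 28 were higher in both, 53 lower in both and 1 (Cldn14) higher after long ischemia but lower at 30 than at 28 min. The 3 largest increases from 28 to 30 min were those of Cyp27b1, Ctxn3 and Akap12. Cyp27b1, the kidney enzyme that activates vitamin D, was at 59.5, 3.82 and 1.28 FPKM at 28 min and at 86.4, 83.6 and 55.2 FPKM at 30 min, against 1.33 to 4.74 FPKM in moderate kidneys. The first 28 min kidney thus lay with those at 30 min, and the other 2 with the moderate ones. Ctxn3 showed the same order with 7.76, 1.75 and 1.14 FPKM and then 12.4, 19.8 and 8.15 FPKM. Akap12 was at 24.0, 13.4 and 14.3 FPKM and at 34.1, 74.6 and 74.3 FPKM. The 3 largest decreases were those of Keg1, Ldc1 and Ces1g. Keg1 was at 677, 765 and 694 FPKM at 28 min and at 282, 124 and 64.7 FPKM at 30 min, after 1051 to 1396 FPKM in moderate kidneys, and its log2 fold change from 28 to 30 min was -2.23 ± 0.33 (adjusted p = 0.00170). Both steps of Keg1 were free of overlap. Ldc1 and Ces1g changed by -1.88 and -1.82.

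The proximal tubule lists gave further decreases from 28 to 30 min, with 8 of 46 transporters and 3 of 20 brush border genes called lower (0.669% of all tested genes) and 0 called higher. The 3 were Anpep, Lrp2 and Cubn. Lrp2 was at 50.4, 56.6 and 59.7 FPKM and then at 31.5, 22.3 and 14.1 FPKM, after 81.7 to 108 FPKM in moderate kidneys. Among the injury markers only Akap12 and Sprr2f were called higher at 30 than at 28 min, and the median over the 30 markers was 0.18. Hspa1a, an inducible heat shock protein, was at 18.0, 14.9 and 13.3 FPKM and at 47.5, 62.1 and 38.9 FPKM, so that 1 of the 28 min kidneys lay within the moderate range of 7.63 to 14.4 FPKM and 2 just above it. Of the 21 endothelial genes 0 were called between 30 and 28 min, with a median of 0.51, and 3 of 8 red blood cell genes (Hba-a1, Hba-a2 and Hbb-bs) were higher at 30 min. Hba-a1 was at 152, 152 and 371 FPKM at 28 min and at 541, 599 and 333 FPKM at 30 min, and at 166 to 480 FPKM in moderate kidneys.

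Leukocyte markers gave 3 calls in the pooled comparison. Of 18 neutrophil genes, S100a8 and S100a9, the subunits of calprotectin, were higher (1.27% of all tested genes). Above all moderate kidneys were 5 of the 18 (11.1% of all tested genes). S100a9 was at 1 to 2.34 FPKM (median 1.58) in moderate and at 5.21 to 12.5 FPKM (median 7.17) in long ischemia kidneys, and S100a8 rose by 1.71 ± 0.21. The summed level of the 18 genes was 5.73 to 9.97 FPKM against 18.2 to 37.7 FPKM. Most of them are low here. With a pseudocount of 0.1 FPKM 10 of the 18 were called higher, against 501 of all 17935 tested genes. Of 21 monocyte and macrophage genes only Chil3 was called, higher by 1.47 ± 0.21, and the list had a median of -0.06. Lyz2 (lysozyme) was at 24.7 to 51.1 FPKM against 15.6 to 47.9 FPKM and Plac8 had a log2 fold change of -0.29 ± 0.14. Of 18 lymphocyte and natural killer cell genes 0 were called, and the summed level was low in both groups, at 4.18 to 7.77 FPKM in moderate and 1.91 to 3.44 FPKM in long ischemia kidneys. Cd8a had a log2 fold change of -0.67 ± 0.11 and Lck of 0.09 ± 0.09. With a pseudocount of 0.1 FPKM 3 of the 18 were called lower (791 of all 17935 tested genes), Cd8a at -1.40 among them.

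Of 39 cytokines and chemokines, 2 were higher and 3 lower (1.27% and 2.58% of all tested genes). Il24, of the interleukin 10 family, was at 0 to 0.50 FPKM in moderate and at 1.6 to 3.95 FPKM in long ischemia kidneys, and Csf1, the macrophage growth factor, rose by 1.08 ± 0.11. Cxcl12, Ccl28 and Ccl12 fell by 1.63 ± 0.15, 1.56 ± 0.22 and 1.31 ± 0.21 on the log2 scale. Il6 and Ptgs2 (cyclooxygenase 2) were low throughout. Il6 was at 0.06 to 0.49 FPKM against 0.26 to 1.30 FPKM (adjusted p = 0.0139, with a log2 fold change of 0.36 ± 0.11), and Ptgs2 was at 0.21 to 0.67 FPKM against 0.77 to 2.12 FPKM (0.72 ± 0.10). At such levels the pseudocount of 1 FPKM shrinks the fold change, and with 0.1 FPKM both were called, Il6 at 1.08 and Ptgs2 at 1.58. Of 18 genes of interleukin 6 signaling 0 were called, with Stat3 at 24.95 to 36.1 FPKM against 39.9 to 59.3 FPKM (log2 fold change 0.70 ± 0.09) and Il11ra1 at -0.38 ± 0.04.

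Interferon response, antigen presentation and complement genes gave few calls, to be read against 2.58% lower and 1.27% higher among all tested genes. Of 39 interferon response genes 3 were lower (Tgtp1, Igtp and Gbp3, each a GTPase) and 0 higher, with a median of -0.42. With a pseudocount of 0.1 FPKM 11 of them were lower, against 791 of all 17935 tested genes. Of 20 antigen presentation genes only H2-Aa, a class II chain, was called, with a log2 fold change of -1.16 ± 0.23, and B2m and H2-D1 of class I had log2 fold changes of -0.05 ± 0.08 and 0.33 ± 0.08. Of 23 complement genes, C7, C8g and Serping1 fell by 1.15 ± 0.14, 1.07 ± 0.10 and 1.05 ± 0.21, and 0 were higher. Igtp, Gbp3, Tgtp1 and Serping1 lay near the fold change limit, and each lost its call without some single kidneys. Leaving out each kidney gave log2 fold changes of -1.149 to -0.931 for Igtp and -1.074 to -0.988 for Gbp3. With 1 mean per ischemia time over all 27 kidneys, limma gave adjusted p = 0.0582 for Igtp and 0.122 for Tgtp1, so neither was called. Without the first, the second or the third 30 min kidney 1 interferon response gene was called, without the second 28 min kidney 7, without the third 20 min kidney 5 and without the 5 kidneys with Adipoq 0. Serping1 was between -0.96 and -0.98 without the first 28 min, the first 30 min or the second 30 min kidney. For antigen presentation 2 genes were called without the second 28 min or the third 30 min kidney.

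Other cell types gave few calls. Of 17 podocyte genes 0 were called, with a median of 0.35, Podxl at 22.5 to 39.5 FPKM against 37.1 to 66.8 FPKM and Vegfa at 56.5 to 86.4 FPKM against 43.4 to 51.5 FPKM. Of 21 endothelial genes 0 were called in the pooled comparison and 0 were free of overlap, with Plvap at a log2 fold change of -0.08 ± 0.15 and Emcn at 0.22 ± 0.14. Of 17 fibroblast and smooth muscle genes, Col3a1 and Dcn (decorin) were lower. Of 8 red blood cell genes only Slc4a1, which intercalated cells also make, was lower, and Hba-a1 and Hbb-bs had log2 fold changes of 0.37 ± 0.29 and 0.32 ± 0.32. Of 10 adipocyte and adrenal genes 0 were called, Adipoq at -0.99 ± 0.71 and Fabp4 at -0.50 ± 0.39.

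The 26 min kidneys were in neither group. Averaged over the 227 genes called higher, the mean log2(FPKM + 1) was 3.67, 3.58 and 4.01 in the 3 kidneys at 26 min, 3.36 to 3.87 in moderate and 4.67 to 5.34 in long ischemia kidneys. Over the 462 genes called lower it was 4.74, 4.79 and 4.56, against 4.72 to 5.11 and 3.10 to 3.69. On these averages only the third 26 min kidney lay between the groups, and the other 2 were within the moderate range. For the share of Kap it was the other 2 that lay between the groups. The genes were called from the moderate and long ischemia kidneys, so the gap between these groups was fixed by the choice of genes. The 26 min kidneys took no part in that choice. Against the same 12 moderate kidneys, limma called 0 genes at 26 min, 2 without the third 26 min kidney, and 2156 genes (12.02%) had an unadjusted p under 0.05. The comparisons of 26 min and of long ischemia with moderate ischemia share these 12 kidneys, so their values are set side by side only. In the medians that follow, those at 28 and 30 min are also enlarged by the choice of genes. Over the 227 genes called higher, the median difference of the mean log2 level from moderate was 0.21 at 26 min, 1.12 at 28 min and 1.58 at 30 min, and over the 462 genes called lower it was -0.20, -1.15 and -1.63. Mep1b was at 52.2 FPKM (median) in moderate kidneys, its log2 difference at 26 min was -0.99 ± 0.31 (adjusted p = 0.273), and that of Kap was -0.85 ± 0.17 (adjusted p = 0.198). Havcr1, Fgb and Sprr2f were 0.67, 1.13 and 1.37 above moderate at 26 min, none of them called. Within the moderate group, limma's moderated F test found 0 genes that differed among 18, 20, 22 and 24 min at an adjusted p under 0.05, and 684 genes (3.81%) at an unadjusted p under 0.05.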

How the data were processed

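RNA of 27 mouse kidneys was sequenced by the authors on DNBSEQ-G400, with 3 mice at each of 9 ischemia times. The authors deposited FPKM values per gene symbol, with 2 decimals. The submitters' processing notes name Bowtie2, RSEM, DESeq2 and GRCm38.p6, with no versions or roles. Read counts were not used here, and depth is unknown. Groups came from the sample titles.

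FPKM values were taken as log2(FPKM + 1), quantile normalized over all 27 kidneys and fitted in limma 3.58.1 (R 4.3.3) for the 17935 genes above 0 FPKM in at least 3 of the 18 kidneys, with Benjamini-Hochberg adjustment. The pooled comparison used 2 group means. The comparison of 30 with 28 min used 1 mean per time over the 18 kidneys, and that of 26 min added its 3 kidneys. Fold changes are on the log2(FPKM + 1) scale, which understates those of low genes, and ± is the SE unless stated.

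Genes named are the 12 largest increases and decreases among called genes without overlap (predicted symbols left out), up to 4 called members per list plus up to 2 of the minority direction (the 2 most abundant where fewer than 2 were called), fixed genes (Havcr1, Lcn2, Il6, Ptgs2, Pgam2, Pfkfb3 and Kap), and the 3 largest changes each way between 30 and 28 min. Some genes that the rule takes in are not reported here. Full lists of called members and genes said to be chosen later are exceptions. The members and the 45 gene lists were chosen with earlier results of these data known. Steps were tested on simulated data. Other settings tried were a smaller pseudocount (0.1 FPKM), values without quantile normalization or rescaled to a constant sum, other filters and groupings, an eBayes trend, the replicate number as a block, and omission of each kidney in turn. Same-numbered kidneys did not deviate together on average (mean r 0.02 over 45 pairs, from -0.32 to 0.48), and numbers were not treated as pairs. With 3 kidneys per time this check cannot tell whether same-numbered mice shared a batch. Figures were drawn with matplotlib 3.10.9.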

Additional observations from a re-analysis of the deposited data

Results flagged for a closer look

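Of 162 genes named in the text, 10 had a kidney among the 6 long ischemia kidneys that lay far from the nearest other one by Dixon's criterion, which chance alone meets in about 1 in 20 groups. The third 30 min kidney was the outlying one for 7 of them. It was highest for Umod (2033.56 FPKM), Slc12a1 (142.13 FPKM), Egf (14.08 FPKM), Ppp1r1b (15.45 FPKM) and Tuba1b (518.53 FPKM) and lowest for Fgb (31.52 FPKM) and Psma4 (137.08 FPKM). The first 30 min kidney was highest for Krt18 (174.24 FPKM) and Adipoq (1.79 FPKM), and the second for Bcl2l1 (154.51 FPKM).

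For 25 of the 162 named genes the change from moderate ischemia differed between 30 and 28 min, against 1.1% of all tested genes. The test was limma's of 30 against 28 min, with the same moderate kidneys cancelling out. Cyp27b1, Ctxn3, Akap12, Keg1, Ldc1 and Ces1g were named by this contrast, and Mcm5 and Rrm2 after their values were seen. The count of 25 is thus partly fixed by the naming. On the log2 scale the level at 30 min was above that at 28 min by 3.14 for Cyp27b1, 1.86 for Ctxn3, 1.81 for Akap12, 1.69 for Hspa1a, 1.63 for Sprr2f, 1.38 for Plk3, 1.28 for Itga5, 1.27 for Hbb-bs, 1.23 for Pdk4, 1.17 for Hba-a1 and 1.11 for Hspb1. The differences in the other direction were -2.23 for Keg1, -1.88 for Ldc1, -1.82 for Ces1g, -1.44 for Rrm2, -1.39 for Mcm5, -1.33 for Gatm and for Nat8f6, -1.32 for Ccl12, -1.21 for Serpina1a, -1.19 for Cldn14, -1.14 for Slc7a12, -1.09 for Anpep, -1.03 for Slc22a22 and -1.01 for Hmgcs1.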

How the results depend on the processing

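With a pseudocount of 0.1 FPKM 1292 genes were called (501 higher, 791 lower), 440 between 30 and 28 min and 1 among 18 to 24 min, also 1 after rescaling to a constant sum. With the 28 min kidneys alone 471 genes were called (151 higher, 320 lower), and with the 30 min kidneys alone 1093 (420 higher, 673 lower). Some named genes called in the pooled comparison were thus under the limit at 28 min alone, among them Itga5 (0.495), Ccl12 (-0.646), Acot2 (0.802), Edn1 (0.81), Hmgcs1 (-0.9) and Mmp7 (0.94). At 30 min alone Cldn14 (0.497), Csf1 (0.938) and Serping1 (-0.91) were under it. Leaving out each kidney gave 628 to 770 called genes (207 to 266 higher, 418 to 508 lower), 90 to 355 between 30 and 28 min, 0 to 1 among 18 to 24 min and 0 to 2 at 26 min. The Kap share difference stayed between -2.67 and -2.43 percentage points. With the replicate block 689 genes were called (227 higher, 462 lower) and 194 between 30 and 28 min. The sample titles tie same-numbered kidneys by the number alone, and 14 of 45 pairs were above a correlation of 0.1.

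The sign of uncalled or unevenly placed genes changed in some settings, and the cause was not tested. With the 28 min kidneys alone the log2 fold change was -0.131 for Emcn, -0.216 for Hba-a1, -0.314 for Hbb-bs, 0.067 for Hnf4a, 0.048 for Lyz2, 0.663 for Mcm5 and 0.182 for Rrm2. With the 30 min kidneys alone it was 0.035 for B2m, 0.218 for Fabp4, -0.265 for Pcna, 0.057 for Pfkfb3, 0.1 for Plvap, -0.145 for Rpl41 and -0.021 for Rps2. Against 22 and 24 min alone Lyz2 was at 0.145, and without the kidneys with Adipoq Pfkfb3 was at 0.101. Leaving out each kidney gave -0.158 to 0.173 for Lyz2, -0.206 to 0.172 for Mcm5 and -0.24 to 0.005 for Plvap. Depth is unknown, so genes near 0 FPKM are the least certain.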
